A study of Homo sapiens with 6 samples.

Results

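The serine synthesis and one-carbon enzymes were PHGDH, PSAT1, PSPH, SHMT1, SHMT2, MTHFD1, MTHFD2, ALDH1L2 and MAT2A, taken as every probe set that the platform annotation assigns to exactly 1 of these 9 gene symbols. This gave 12 of the 22215 probe sets in the deposited table, for 8 of the 9 genes. No single-gene probe set of ALDH1L2, a mitochondrial enzyme that oxidises formyl-folate, was used here. The samples were 6 Affymetrix arrays of total RNA from HCT116, an established human colon cancer cell line. Of these, 3 came from HCT116 cells stably expressing an shRNA against NFX1-91, a splice form of the zinc finger protein NFX1, and 3 from HCT116 cells stably expressing a control shRNA against β-galactosidase. Both groups thus carried a lentiviral hairpin, delivered in the vector FUGW, and both grew in Dulbecco's modified Eagle's medium with fetal bovine serum and penicillin-streptomycin. That medium supplies serine, glycine and methionine.

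Cells build serine from a glycolytic intermediate in 3 steps, catalysed in turn by PHGDH, PSAT1 and PSPH. The serine hydroxymethyltransferases SHMT1, in the cytosol, and SHMT2, in mitochondria, turn serine into glycine and load its side-chain carbon onto folate. MTHFD1 in the cytosol and MTHFD2 in mitochondria interconvert the loaded folates, which feed purine and thymidylate synthesis, while MAT2A makes S-adenosylmethionine, the methyl donor of the cell. Many tumour cells express PHGDH, PSAT1, SHMT2 and MTHFD2 at high levels, and the transcription factor ATF4 is known to activate them.

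Total RNA signals are given here after each array was scaled to a mean of 500, and log2 fold changes are those of NFX1-91 shRNA against control arrays on the log2(signal + 16) scale, which understates changes of dim probe sets. A probe set was called when its limma p-value, adjusted by the Benjamini-Hochberg method over all 22215 probe sets, was under 0.05. The labels do not tell whether a group's arrays were separate cultures, nor whether its cells were clones or pools. The p-values therefore weigh a difference only against the scatter of these arrays, and that scatter may be technical. In bulk RNA, fewer cells of a type and less RNA per cell cannot be told apart. Arrays of the same group correlated at 0.992 to 0.995 (Pearson) and arrays of different groups at 0.983 to 0.985. Of the 3 probe sets of NFX1, the hairpin's target, the brightest 2 were not called (log2 fold changes of -0.13 and -0.06, adjusted p = 0.40 and 0.775, exact two-sided permutation p = 0.2 and 0.5). The dimmest fell by 0.60 (adjusted p = 0.0137, exact permutation p = 0.1, the smallest that 3 against 3 arrays allow). Its arrays ran from 16.8 to 24.4 in controls and from 4.56 to 8.87 with the NFX1-91 hairpin, around or below the offset. The size of this fall moved with the offset, to -0.23 with an offset of 64 (adjusted p = 0.0135), -1.32 with 1 (0.0206) and -1.45 with none (0.0237), and no probe set is known here to read NFX1-91 alone.

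The 6 epithelial markers lay between brightness percentiles 79.8 and 99.4 of all probe sets. CDX2 lay at percentile 47.2, and the intestinal markers VIL1, CDH17 and LGALS4 at or below percentile 14.2. The summed signal of the epithelial markers ran from 23827 to 24662 in control arrays and from 28424 to 28713 in NFX1-91 shRNA arrays, with KRT8 and KRT18 higher and EPCAM and CDH1 lower. The 4 intestinal markers summed to 77.3 to 92.1 against 91.1 to 105, and none was called. Sums ran from 249.2 to 335 against 282 to 333 for 6 fibroblast markers, from 46.7 to 60.7 against 56.8 to 87.8 for 4 blood markers and from 33.2 to 37.1 against 35.5 to 47.0 for 3 endothelial markers. HBB was called higher and no other marker of these cell types was; the lowest marker signal on any array, of CD3D, was 0.778. The part of these differences in the results was not tested.

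Of the 12 probe sets, 3 fell in cells with the NFX1-91 hairpin and 1 rose. Those that fell read PSPH, which releases serine in the last step of its synthesis, the cytosolic folate enzyme MTHFD1, and PHGDH, the first enzyme of serine synthesis. The one that rose read MTHFD2, the mitochondrial folate dehydrogenase. Changes were small, from a 1.69-fold fall for the dimmer PSPH probe set to a 1.13-fold rise for MTHFD2. The 8 probe sets not called included the brighter one of PSPH, with a 1.19-fold fall (limma adjusted p = 0.0983). The PHGDH call was lost in 10 alternative settings and kept in 7. Over all probe sets 25.7% were called, 13.7% lower and 12.0% higher, so 4 of 12 is near the background. The 12 had a median log2 fold change of -0.12, against 0.01 over all probe sets. Of the 12, 9 had a value below 0, as did 10701 of all 22215. Some of the 12 read the same gene, and by the brightest probe set of each gene 6 of 8 lay below 0. The groups did not overlap for 6 of the 12, against 39.0% of all probe sets.

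**Figure D1:**
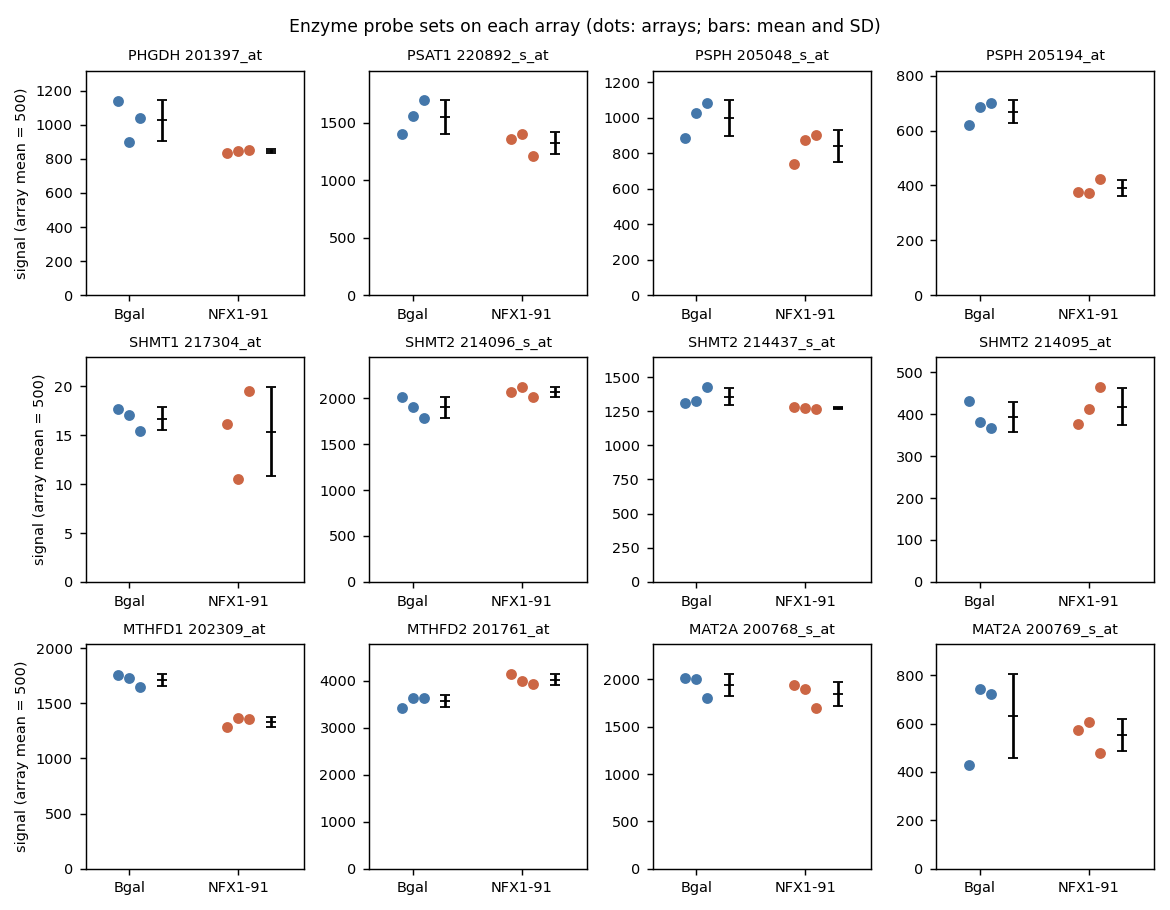
Signal of each of the 12 probe sets (vertical axes from 0, arrays scaled to a mean of 500) on the 3 control (Bgal) and 3 NFX1-91 shRNA arrays, with dots for arrays and bars for mean and SD, the brightest probe set of a gene first. The groups lie clearly apart for the dimmer PSPH probe set, MTHFD1 and MTHFD2, and in the dimmer MAT2A probe set 1 control array, at 430.2, lies below the other two.

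In serine synthesis, PHGDH oxidises phosphoglycerate and commits it to the pathway. Its probe set read 1139.7, 899 and 1041 in the control arrays and 835, 849.6 and 854 in the NFX1-91 shRNA arrays. The control arrays were spread widely and the others lay close together below them, without overlap. The means were 1026 ± 121 and 846 ± 9.83 (SD, n = 3 per group), a log2 fold change of -0.27 (SE 0.080, 95% interval -0.45 to -0.09, adjusted p = 0.0377). This call was not firm. It was lost with quantile normalization (adjusted p = 0.0622), with median centring (0.0692), without a variance trend (0.105) and at a threshold of 0.01. It was lost too when control array 1 (log2 fold change -0.19, adjusted p = 0.0687), control array 3 (0.111) or NFX1-91 shRNA array 1, 2 or 3 (0.111, 0.116 and 0.0928) was left out, and kept without control array 2 (log2 fold change -0.36, adjusted p = 0.00770).

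PSAT1, the transaminase of the second step, gave 1403, 1558 and 1696 in control arrays and 1359.8, 1401 and 1211 in NFX1-91 shRNA arrays. The highest NFX1-91 shRNA array and the lowest control array all but touched. The means were 1552 ± 146 and 1324 ± 99.5, with a log2 fold change of -0.23 (SE 0.078, 95% interval -0.40 to -0.05) that did not pass (adjusted p = 0.0673). It passed with dim probe sets left out (adjusted p = 0.0353), with a robust prior (0.0394), in a fit of 1 probe set per gene (0.0446) and without control array 1, where it was -0.30 (0.0151). Without control array 3 it was -0.16 (0.208).

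PSPH, the phosphatase that ends the pathway, was read by a pair of probe sets with changes of unequal size. The dimmer PSPH probe set read 622, 686 and 702 in control arrays and 377, 373 and 423 in NFX1-91 shRNA arrays, so that every NFX1-91 shRNA array lay well below every control array. From 670.0 ± 42.4 to 391 ± 27.7 it fell by 0.75 on the log2 scale (SE 0.073, 95% interval -0.92 to -0.59, adjusted p = 0.000132), the largest change among the 12. The brighter one read 885, 1028 and 1083 against 738, 877 and 906, and its groups overlapped. Its means of 999 ± 102 and 840.3 ± 89.9 gave a log2 fold change of -0.25 (SE 0.095, 95% interval -0.46 to -0.03) that did not pass (adjusted p = 0.0983), but passed without control array 1 (-0.33, adjusted p = 0.0242). Without NFX1-91 shRNA array 1 it was -0.16 (adjusted p = 0.280). The log2 difference between the brighter and the dimmer PSPH probe set was 0.56 in control and 1.07 in NFX1-91 shRNA arrays, without overlap. Its exact two-sided permutation p was 0.1, the smallest possible, and 0.2 adjusted over 4 such pairs of probe sets, compared after their values had been seen. The RefSeq gene table holds 7 pseudogenes named for MTHFD2, 4 for PSAT1 and 1 each for PSPH, SHMT1, MTHFD1 and MAT2A. Which copies or transcripts a probe set reads was not tested.

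The hydroxymethyltransferases did not pass. SHMT2, the mitochondrial form, had 3 probe sets. The brightest read 2018, 1905 and 1788 in control arrays and 2069, 2126 and 2017 in NFX1-91 shRNA arrays, overlapping by less than 1 unit. Its log2 fold change was 0.12 (SE 0.051, 95% interval 0.01 to 0.24, adjusted p = 0.123), with 0.16 (adjusted p = 0.0276) without control array 1 and 0.08 (0.325) without control array 3. The second in brightness pointed the other way, with 1312, 1328 and 1429 in control arrays above 1279.85, 1271 and 1265 in the others (log2 fold change -0.09, SE 0.047, 95% interval -0.20 to 0.02, adjusted p = 0.210). The dimmest read 432, 381 and 366 against 377, 412 and 465, with overlapping groups (log2 fold change 0.08, SE 0.093, 95% interval -0.13 to 0.30, adjusted p = 0.598). The 3 probe sets thus gave SHMT2 no common direction. The log2 difference between its brightest 2 probe sets went from 0.48 to 0.70 without overlap between the groups (exact permutation p = 0.1, adjusted 0.2).

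SHMT1, the cytosolic form, was read by 1 single-gene probe set, which was dim, at brightness percentile 25.2. It gave 17.7, 17.1 and 15.4 in control arrays and 16.1, 10.5 and 19.6 in NFX1-91 shRNA arrays. These values lay about the offset of 16 and overlapped. The log2 fold change was -0.07 (SE 0.143, 95% interval -0.39 to 0.26, adjusted p = 0.790), and a change inside that interval cannot be told from none. A larger change could also go uncalled, as p-values were adjusted over all 22215 probe sets. A brighter probe set, annotated to SHMT1 together with MIR6778, lay at percentile 78.9 and was not called (limma adjusted p = 0.662). Its log2 fold change was -0.06 (95% interval -0.22 to 0.11), and which gene it reads was not tested.

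In the folate cycle MTHFD1 and MTHFD2 moved in opposite directions. MTHFD1, the multifunctional enzyme of the cytosol, read 1761, 1725 and 1649 in control arrays and 1282, 1365 and 1356 in NFX1-91 shRNA arrays, with a wide gap between the groups. From 1712 ± 57.2 to 1334 ± 45.2 it fell by 0.36 on the log2 scale (SE 0.046, 95% interval -0.46 to -0.25, adjusted p = 0.000607), which is 1.28-fold. MTHFD2 read 3427, 3639.9 and 3636 in control arrays and 4149, 3994 and 3928 in NFX1-91 shRNA arrays, each of which lay above every control array. From 3567 ± 122 to 4024 ± 114 it rose by 0.17 (SE 0.039, 95% interval 0.09 to 0.26, adjusted p = 0.0104). The MTHFD1 call held in all 17 alternative settings, and its adjusted p ran from 0.000151 to 0.0118, the highest without a variance trend. The MTHFD2 rise kept its direction in all 17 and lost its call without a variance trend (adjusted p = 0.113) and at a threshold of 0.01.

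Promoters are shown because ATF4 and the E-box factors of the MYC family are known regulators of some genes of this pathway. PSPH, whose dimmer probe set had the largest change among the enzymes, had no sequence at hand and is not shown. RefSeq sequences (GRCh38.p14) were at hand for PHGDH, PSAT1, SHMT1, MTHFD1, MTHFD2 and MAT2A, 6 of the 9 genes. In windows from 250 bases before to 50 after the start site, both strands were searched for the E-box CACGTG, which is the same on both strands, and for TGATGNAA, the core of the element that ATF4 binds with C/EBP factors. CACGTG lay in 1 of the 6 windows, that of MTHFD1, beginning 15 bases before the start site, and in 7.26% of 35116 windows of that length. TGATGNAA lay in 0 of the 6 and in 3.62% of all, which says only that these letters are not in these windows. The 250 bases before each start site follow on the plus strand, 5′ to 3′, for the called enzymes with an entry, with the E-box in capitals, from chr14:64388103-64388352 for MTHFD1, chr1:119711684-119711933 for PHGDH and chr2:74198365-74198614 for MTHFD2.
MTHFD1: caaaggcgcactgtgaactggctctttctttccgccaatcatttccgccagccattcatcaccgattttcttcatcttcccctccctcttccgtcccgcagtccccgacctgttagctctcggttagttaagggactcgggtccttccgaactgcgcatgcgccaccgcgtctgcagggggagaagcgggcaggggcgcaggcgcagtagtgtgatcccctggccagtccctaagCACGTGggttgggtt
PHGDH: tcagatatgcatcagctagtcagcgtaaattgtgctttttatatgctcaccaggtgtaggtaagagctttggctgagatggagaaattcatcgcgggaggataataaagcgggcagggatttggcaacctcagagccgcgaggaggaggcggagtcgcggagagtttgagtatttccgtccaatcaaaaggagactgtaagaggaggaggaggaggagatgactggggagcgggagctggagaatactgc
MTHFD2: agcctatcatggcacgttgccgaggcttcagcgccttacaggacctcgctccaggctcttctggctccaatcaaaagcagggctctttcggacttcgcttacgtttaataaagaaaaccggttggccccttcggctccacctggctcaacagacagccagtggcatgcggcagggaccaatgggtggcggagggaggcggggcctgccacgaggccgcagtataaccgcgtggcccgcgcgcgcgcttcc

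MAT2A had a pair of probe sets, neither of which passed. The brighter read 2012, 2006 and 1802 in control and 1937, 1901 and 1701 in NFX1-91 shRNA arrays (log2 fold change -0.07, SE 0.063, 95% interval -0.22 to 0.07, adjusted p = 0.492). The dimmer read 430.2, 743 and 723 against 573, 605 and 479, and control array 1 lay below every other array. With that array its log2 fold change was -0.16 (SE 0.189, 95% interval -0.59 to 0.27, adjusted p = 0.630), and without it -0.40 (adjusted p = 0.0146). Without control array 2 it was -0.02 (0.965), without control array 3 -0.04 (0.928) and without NFX1-91 shRNA array 3 -0.06 (0.892).

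Control array 1 bore on several enzymes. Without it 5 of the 12 probe sets were called lower and 2 higher, while 26.8% of all probe sets were called. The added calls were those of PSAT1, the brighter PSPH, the brightest SHMT2 and the dimmer MAT2A probe set, and the lost call was that of PHGDH. Control array 1 had the highest PHGDH signal and, for PSAT1, both PSPH probe sets and the dimmer MAT2A probe set, the lowest of the control arrays. Without any other single array 2 or 3 were lower and 1 higher, while 17.4% to 21.9% of all probe sets were called.

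**Figure D2:**
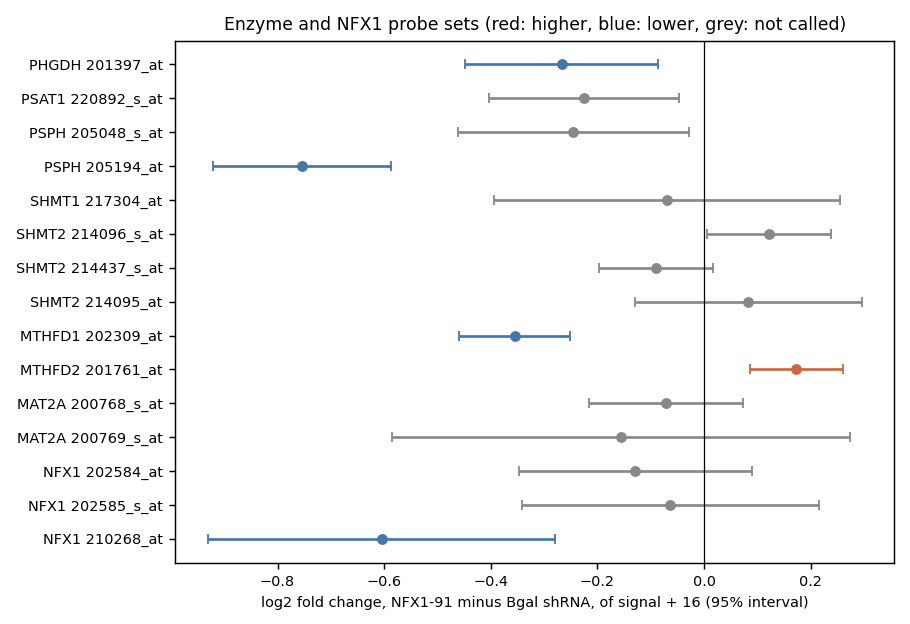
Log2 fold change (NFX1-91 minus control shRNA, log2 of signal + 16) of the 12 probe sets and the 3 of NFX1, with 95% intervals from limma, in blue where called lower, red where called higher and grey where not called. The dimmer PSPH probe set lies at -0.75, apart from the other enzyme probe sets, which lie between -0.36 and 0.17.

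Of the 12 probe sets 11 lay at percentile 74.7 or above, and with the dimmest 40% of probe sets left out, 4 fell and 1 rose while 45.6% of all remaining probe sets were called. The coefficient of variation within a group was lowest for the second SHMT2 probe set in NFX1-91 shRNA arrays (0.591%) and highest for SHMT1 there (29.8%), followed by the dimmer MAT2A probe set in control arrays (27.7%).

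**Figure D3:**
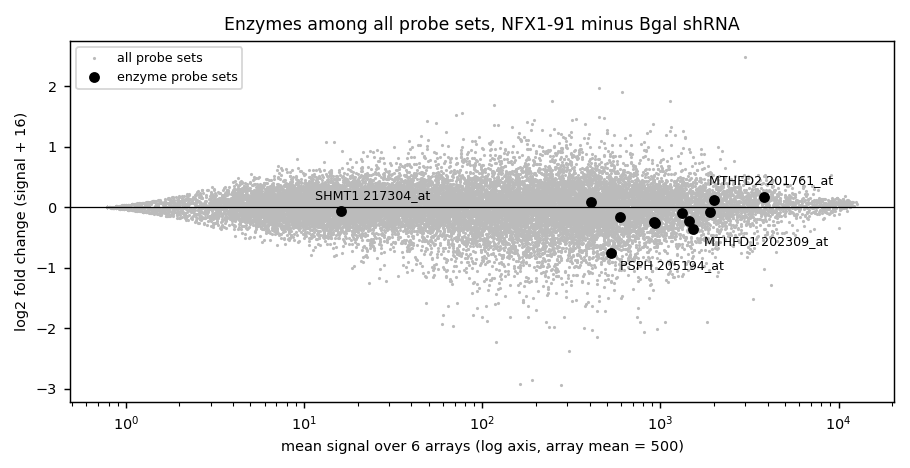
Log2 fold change (NFX1-91 minus control shRNA) against mean signal over the 6 arrays (log axis) for all 22215 probe sets (grey) and the 12 enzyme probe sets (black). The enzyme probe sets lie within the grey cloud, the dimmer PSPH probe set lowest at -0.75.

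Around the enzymes, 39 of 52 other genes of serine, folate and methionine metabolism had a single-gene probe set, each gene being read by its brightest. Of these 9 rose, 12 fell and 18 were not called, while over all 11963 genes read that way 30.0% were called, 13.4% higher and 16.6% lower. Their median log2 fold change was -0.09, against 0.00365 over all genes. The groups did not overlap for 25 of the 39, against 43.5% of all genes. The changes ran from -0.57 to 0.80, wider than those of the 12 enzyme probe sets on the upper side. In 4 of the 6 groups genes moved both ways; in the folate reactions and among the regulators 1 gene fell and none rose.

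Among 10 measured genes of serine and glycine handling 3 rose and 3 fell. SFXN1, which carries serine into mitochondria, rose most, reading 754 ± 28.5 in control and 1325 ± 59.3 in NFX1-91 shRNA arrays, 0.80 higher on the log2 scale (SE 0.053, adjusted p = 2.19e-05). The subunits of serine palmitoyltransferase, which draws serine into sphingolipids, parted: SPTLC1 fell by 0.51 (adjusted p = 0.000102) and SPTLC2 rose by 0.31 (0.0150). GCAT, which breaks down a threonine product to glycine, fell by 0.57 (0.000248), and the serine racemase SRR fell by 0.34 (0.0360). DLD, a subunit of the glycine cleavage system, rose by 0.17 (0.0130). Its partners GLDC (0.30, adjusted p = 0.119), GCSH (-0.11, 0.0837) and AMT (-0.03, 0.918) did not pass. Without NFX1-91 shRNA array 2, DLD (adjusted p = 0.0688), SPTLC2 (0.0807) and SRR (0.101) were no longer called. DLD was also not called without a variance trend (0.113). SPTLC2 also lost its call without control array 2 (0.0690). SRR lost its call without control arrays 1, 2 or 3 (0.0721, 0.119 and 0.0584) or NFX1-91 shRNA array 1 (0.0993), and with quantile normalization (0.0505) and median centring (0.0622). Of the 4 SPTLC2 probe sets 3 were called higher, and of the 2 of SPTLC1 only the brighter was called.

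Of 4 other genes of the folate reactions 1 fell, TYMS, the enzyme that makes thymidylate with folate-borne carbon. It read 6061 ± 176 in control and 4944 ± 81.0 in NFX1-91 shRNA arrays, a log2 difference of -0.29 (SE 0.033, adjusted p = 0.000268). MTHFD2L, a mitochondrial relative of MTHFD2, had a value of -0.29 (adjusted p = 0.134), and ALDH1L1 and FTCD, at or below percentile 43.9, did not pass (adjusted p = 0.838 and 0.758). In folate uptake and storage 2 of 5 fell and 1 rose. FPGS, which retains folate in cells as polyglutamates, fell by 0.37 (adjusted p = 0.00172), and SLC25A32, the mitochondrial folate carrier, by 0.30 (0.00374). SLC19A1, the reduced folate carrier of the cell surface, rose by 0.51 (0.00738), though its other 3 probe sets were not called, the lowest at 0.15. The folate receptor FOLR1 (-0.25, adjusted p = 0.167) passed only without control array 1 (-0.40, 0.00129) and was -0.15 (0.441) without control array 3. Its other probe set had a value of 0.15 and was not called. GGH (-0.01, 0.956), which removes glutamates from folate, did not pass and changed sign with quantile normalization (0.015) and median centring (0.023).

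In the methionine cycle and methyl use 3 of 14 rose and 4 fell among genes at percentile 66.4 or above, and AHCYL1, PEMT and 5 dim genes did not pass. MTR, methionine synthase, rose by 0.41 (adjusted p = 0.010) and MTRR, its reactivating partner, by 0.54 (0.000142), with both MTRR probe sets called. AHCY, which clears S-adenosylhomocysteine, went from 2785 ± 8.60 down to 2052 ± 102, a log2 difference of -0.44 (SE 0.044, adjusted p = 0.000145). MAT2B, the regulatory partner of MAT2A, fell by 0.26 (0.00343), the creatine synthesis methyltransferase GAMT by 0.55 (0.00347) and MTAP, which salvages methionine, by 0.51 (0.00273). Of the 5 MTAP probe sets only the brightest was called, and the others ran up to 0.06. AHCYL2, a relative of AHCY, rose by 0.24 (0.0375). Its call was lost without control array 1, 2 or 3 (0.0608, 0.0913 and 0.0825) or NFX1-91 shRNA array 2 or 3 (0.135 and 0.0905). MTR was not called without NFX1-91 shRNA array 2 (0.0567).

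Of 4 transsulfuration and glutathione genes 2 rose and 1 fell. CTH, which makes cysteine from cystathionine, rose by 0.38 (adjusted p = 0.00412), with both probe sets called, and CBS, the enzyme before it, was dim (percentile 18.1) and did not pass (-0.07, 0.807). The subunits of glutamate-cysteine ligase parted, with the modifier GCLM 0.36 higher (0.00101) and the catalytic GCLC 0.21 lower (0.0434). The GCLC call was lost without a variance trend (0.113), with quantile normalization (0.0574) and median centring (0.0550), and without any single array except control array 1 (0.0903 to 0.158), while its dimmer probe set was also called lower. Of the regulators, ATF4 went down from 3979 ± 97.3 to 3231 ± 59.9, a log2 difference of -0.30 (SE 0.034, adjusted p = 0.000314), with no overlap between groups. NUDT21, an RNA processing factor known to act on MAT2A transcripts, had a value of -0.08 (adjusted p = 0.645) and passed only without control array 1 (-0.22, 0.0214). It was -0.02 (0.929) without control array 2 and -0.01 (0.976) without control array 3.

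**Figure D4:**
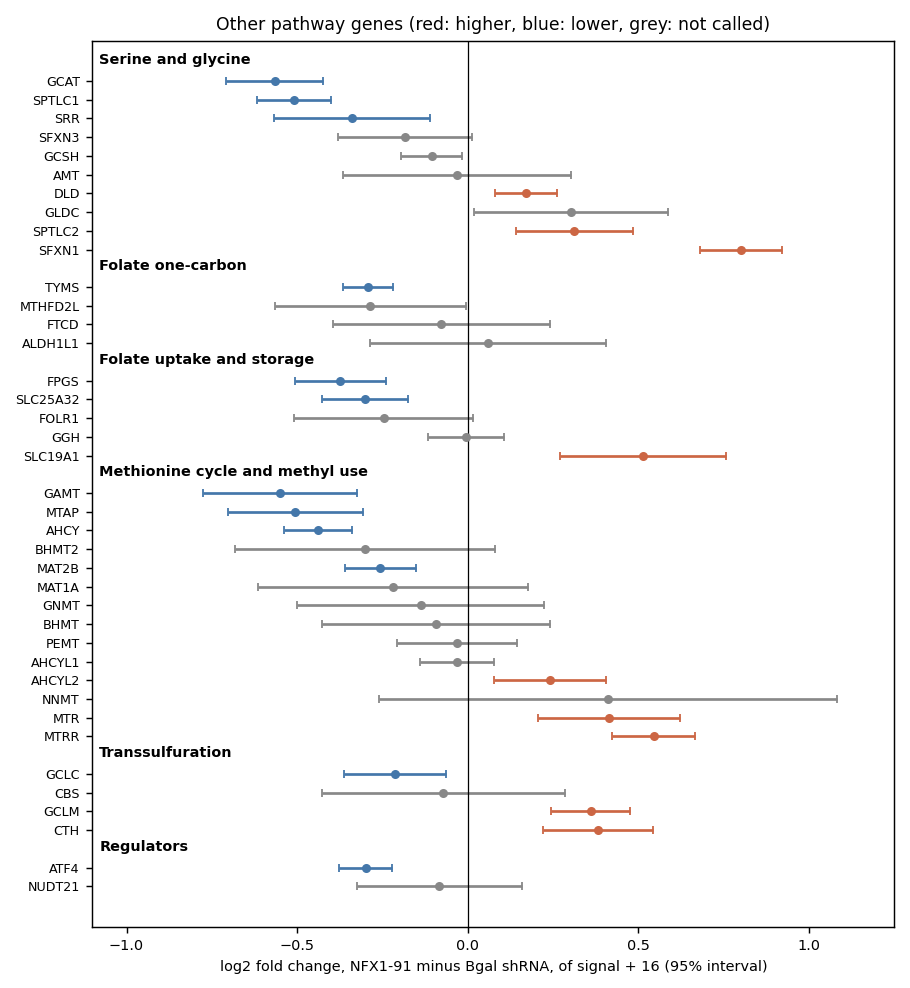
Log2 fold change (NFX1-91 minus control shRNA, log2 of signal + 16) of the 39 other pathway genes by group, with 95% intervals from limma, in blue where called lower, red where called higher and grey where not called. SFXN1 at 0.80 and GCAT at -0.57 mark the ends of the range, and most groups hold both red and blue points.

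Among 5974 genes outside the enzymes whose brightest probe set lay above the median signal of all genes, those most like MTHFD1 over the 6 arrays were HIKESHI, EBP, INTS3, NFKBIB and CTDSP1, with Pearson r of 0.998, 0.998, 0.997, 0.997 and 0.997. MTHFD1 was taken because it had the smallest adjusted p among the enzymes' brightest probe sets. All 5 fell, by 0.46 to 1.30 on the log2 scale, and 892 of the 5974 had r above 0.95. With 3 arrays in each of 2 groups r mostly reads the difference between groups.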

How the data were processed

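Biotin-labelled RNA of 6 samples was hybridised to Affymetrix arrays, per the labels' protocols, which also give groups and replicate numbers. The deposited table holds linear intensity values for 22215 probe sets, and each array's values sum to 1. The authors' summary method and scaling are not given in the sources used here. Each array was multiplied to a mean of 500 and log2(signal + 16) was taken, with no further normalization; 24.1% to 25.9% of an array's probe sets lay below the offset. The number of arrays limits the precision.

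Probe sets were named by the platform annotation: 19064 had 1 gene, 1043 several and 2108 none listed. All 12 enzyme probe sets matched RefSeq symbols by gene identifier. One fit over all probe sets was made with limma 3.58.1 in R 4.3.3 (lmFit, then eBayes with the variance following brightness; no pairing; two-sided). The fit was also run on simulated data with independent noise and 200 changed probe sets. That setting differs from these data, where 5703 probe sets were called, so it lends the calls no support. Figures used Python 3.11.15 and matplotlib 3.10.9.

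The enzymes, the pathway list and the markers were chosen with earlier results of these data known. The naming rule took every enzyme and NFX1 probe set, up to 5 pathway genes per group by adjusted p with every regulator, and the 5 genes most like the enzyme with the smallest adjusted p. Called pathway genes beyond that rule, SRR, MTR and AHCYL2, and the uncalled GLDC, GCSH, AMT, AHCYL1 and PEMT, were named after their values were seen.

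Alternatives were quantile normalization, median centring, offsets of 1 and 64 and none, leaving out probe sets below the 40th percentile of brightness, no variance trend, a robust prior, fitting 1 probe set per gene, a replicate block, leaving out each array and a threshold of 0.01.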

Additional observations from a re-analysis of the deposited data

How the results depend on the processing

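Over 17 alternatives the enzyme probe sets kept direction and call in 178 values, were called in 8 where they had not been, lost a call in 12 and changed sign in 1, SHMT1 without NFX1-91 shRNA array 2 (0.047; range with single arrays left out -0.17 to 0.047). Enzyme probe sets called higher numbered 0 without a variance trend and at a threshold of 0.01, against 1. With single arrays left out, 1 to 2 were called higher and 2 to 5 lower. Pathway genes called higher numbered 5 at the threshold of 0.01, against 9, and 5 to 10 with single arrays left out, 5 without NFX1-91 shRNA array 2. Over all probe sets 1535 were higher at that threshold, against 2656, and 1669 to 2761 with single arrays left out, lowest again without NFX1-91 shRNA array 2. At 0.01, 0 of the 3 NFX1 probe sets were called lower, against 1. Its dimmest probe set had no value with dim probe sets left out or with 1 probe set per gene.

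Signs that turned were those of values near 0: with single arrays left out the middle NFX1 probe set ran from -0.14 to 0.0069, FTCD from -0.15 to 0.036, ALDH1L1 from -0.087 to 0.18, CBS from -0.19 to 0.021 and GGH from -0.033 to 0.013. GGH was 0.015 with quantile normalization and 0.023 with median centring. Median centring moved the median over all probe sets from 0.0099 to 0.039 and the share of calls that were higher from 46.6% to 52.5%.

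The replicate numbers of the labels gave no common sign of pairing: deviations from the group mean of same-numbered arrays correlated at -0.225, 0.321 and -0.318. Those of differently numbered arrays correlated at -0.314 to 0.413. Deviations within a group of 3 are not independent, so this check cannot exclude pairing. With the replicate block 3 enzyme probe sets were called lower and 1 higher, as without it, the brighter PSPH probe set (adjusted p = 0.0171) replacing PHGDH (0.0533), SRR (0.0829) and AHCYL2 (0.0802) were not called, and 4914 of all probe sets were called, against 5703. Dim signals limit the single-gene SHMT1 probe set, CBS and the dimmest NFX1 probe set. The cause of these changes was not tested.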

Other observations

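A probe set annotated to PHGDH together with MZT2A and MZT2B fell by 0.27 on the log2 scale (SE 0.038, 95% interval -0.36 to -0.19, limma adjusted p = 0.000961). It read 3650.2, 3484 and 3363 in control arrays and 2882, 2888 and 2903 in NFX1-91 shRNA arrays, without overlap. A change of similar size, -0.27, was read by the single-gene PHGDH probe set, and which gene the shared probe set reads was not tested.

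A probe set annotated to SHMT1 and the microRNA gene MIR6778 lay at brightness percentile 78.9. It read 488, 537 and 567 in control arrays and 519.7, 534 and 476 in NFX1-91 shRNA arrays, with overlapping groups (log2 fold change -0.06, SE 0.074, 95% interval -0.22 to 0.11, limma adjusted p = 0.662).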
